A study of Mus musculus with 6 samples.

Results

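The metallothionein and zinc response genes were followed here in the lens of the mouse: the metallothioneins Mt1, Mt2, Mt3 and Mt4, the metal-sensing transcription factor gene Mtf1, and Slc30a1, which encodes the zinc exporter ZnT1. They were chosen by name through the RefSeq accession of each array probe, and 6 genes with 8 probes were found among 20659 named genes and 39429 probes. RNA of lenses from mice aged 3 months was measured on Agilent arrays with a single dye, Cy3. The 3 knock-in arrays (replicates 1, 2 and 4 in the labels) came from mice that carry the βB2-crystallin W151C substitution, in which cysteine replaces a tryptophan, knocked in with CRISPR/Cas9. Control mice of the same age gave 3 wild type arrays, numbered 1, 2 and 3. Strain, zygosity, sex, the number of founder lines and the number of animals behind an array are not given in the labels. Replicates are called biological there, and the p-values below rest on the spread among arrays, part of which may be technical.

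Metallothioneins are small, cysteine-rich proteins that bind zinc and copper in thiolate clusters and so buffer free metal ions; they also react with oxidants. Mt1 and Mt2 are made in most tissues and are induced by zinc, cadmium, glucocorticoids, cytokines of the interleukin-6 family and oxidative stress, while Mt3 is known mainly from brain and Mt4 from stratified squamous epithelium. Zinc activates MTF1, which binds metal response elements (MREs) in the promoters of Mt1, Mt2 and Slc30a1. ZnT1 carries zinc out of the cell across the plasma membrane, so its gene serves as a second readout of MTF1.

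Stretches around the annotated starts of the MTF1 targets are shown to mark possible MREs in them. The RefSeq promoter table (build GRCm38.p6) held all 6 genes, each with 300 bases from 250 before to 50 after its annotated start. The stretches below run 5′ to 3′ on the plus strand and end 30 bases past the start, at chr8:94178839-94179118 for Mt1, chr8:94172368-94172647 for Mt2 and chr1:191906531-191906810 for Slc30a1. Capitals mark matches to the MRE core, TGCACNC or TGCGCNC, on either strand, and no 2 matches overlapped.
Mt1 promoter: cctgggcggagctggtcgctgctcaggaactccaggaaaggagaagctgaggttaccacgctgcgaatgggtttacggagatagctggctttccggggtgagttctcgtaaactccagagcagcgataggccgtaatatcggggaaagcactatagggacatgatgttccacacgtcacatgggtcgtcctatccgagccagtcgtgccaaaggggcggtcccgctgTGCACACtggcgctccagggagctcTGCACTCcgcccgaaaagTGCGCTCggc
Mt2 promoter: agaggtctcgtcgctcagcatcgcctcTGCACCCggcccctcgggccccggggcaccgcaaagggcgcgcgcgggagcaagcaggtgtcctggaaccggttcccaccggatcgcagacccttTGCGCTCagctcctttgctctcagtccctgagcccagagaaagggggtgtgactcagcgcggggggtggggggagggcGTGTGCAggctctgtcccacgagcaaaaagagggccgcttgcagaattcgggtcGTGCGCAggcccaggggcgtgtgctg
Slc30a1 promoter: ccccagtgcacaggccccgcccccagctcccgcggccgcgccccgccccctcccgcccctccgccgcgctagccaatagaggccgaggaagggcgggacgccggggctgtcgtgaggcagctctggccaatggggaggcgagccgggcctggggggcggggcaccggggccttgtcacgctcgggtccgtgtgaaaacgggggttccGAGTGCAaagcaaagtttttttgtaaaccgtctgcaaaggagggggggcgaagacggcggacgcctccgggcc
Over the 300 bases the core matched 3 times in Mt1, 4 times in Mt2, 2 times in Slc30a1 (1 of them in the bases not shown), 1 time each in Mt3 and Mt4, and not in Mtf1. Of 32851 RefSeq promoter windows of this length, 25.7% held at least 1 match, 7.11% at least 2, 1.97% at least 3 and 0.517% at least 4. Such a match describes these letters and does not show that MTF1 binds there. The counts hold for this window around the annotated start, and elements outside it are not counted. In Mt1 matches began at positions 3 and 21 past that start, and where transcription begins in the lens was not tested. The core of the antioxidant response element, TGACNNNGC, which NRF2 reads, matched 1 time each in Mt2 and Slc30a1, against 12.4% of all windows with at least 1.

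The 75th percentile of the spot signal, by which each array was scaled, was 167 to 201 on the knock-in arrays and 142, 120 and 698 for wild type 1, 2 and 3. Arrays with one scan time in the file headers were taken as one slide: the knock-in arrays on the first, wild type arrays 1 and 2 on the second, and wild type array 3 on the third, scanned on another day. Each slide held one genotype, and the effects of slide and of genotype cannot be told apart. Levels below are log2 signals relative to the 75th percentile of the array, and differences are knock-in minus wild type from limma over 21076 probes, with Benjamini-Hochberg adjusted p and a threshold of 0.05. At that threshold 23.6% of probes were called, and 24.2% of 12785 genes with 1 probe each, 12.4% higher and 11.8% lower in knock-in lenses. The higher calls were 51.2% of the genes called, and 41.4% when arrays were centred on their median instead.

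Mt1 and Mt2 rose in the knock-in lenses, Mt1 by 6.56-fold (95% interval 4.79 to 8.99) and Mt2 by 11.9-fold (95% interval 7.57 to 18.8). The differences of Mt3, Mtf1 and Slc30a1 did not pass the test, and Mt4 was too dim to be tested. Thus 2 of the 5 measured genes were called, both higher, beside 24.2% of all genes called and 12.4% called higher. Mt3 entered the test only through its wild type level. In bulk lens RNA, a different number of cells that make a transcript and a different amount per cell cannot be told apart.

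The Mt1 level was 3.45, 3.13 and 3.01 on the knock-in arrays (1, 2 and 4 in that order), against 0.50, 0.29 and 0.65 on wild type arrays 1, 2 and 3. All knock-in arrays lay above all wild type arrays, and the lowest knock-in level was 2.35 above the highest wild type level on the log2 scale. Knock-in lenses averaged 3.20 ± 0.23 and wild type lenses 0.48 ± 0.18 (SD, n = 3 each). The log2 difference of 2.71 (SE 0.19, limma adjusted p = 0.000359) was exceeded by the rises of 1.37% of genes.

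For Mt2 the level was 4.34, 4.14 and 4.17 on the knock-in arrays, against 1.04, 0.86 and 0.025 on wild type arrays 1, 2 and 3. The groups were again apart, by 3.11 between the lowest knock-in and the highest wild type level, and wild type array 3 was the lowest. Knock-in lenses averaged 4.22 ± 0.11 and wild type lenses 0.64 ± 0.54 (SD, n = 3 each). The log2 difference was 3.58 (SE 0.28, limma adjusted p = 0.000454), and 0.837% of genes had a larger rise. Groups without overlap, with the knock-in arrays higher, occurred in 22.7% of all genes tested. Within the shared scan day, which leaves out wild type array 3, the log2 differences were 2.80 for Mt1 and 3.27 for Mt2. Treating slide as a random block in limma gave 2.69 (adjusted p = 0.00906) and 3.68 (adjusted p = 0.00418). With all knock-in arrays on one slide, that fit draws the spread between slides from wild type only. It cannot part genotype from the knock-in slide.

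**Figure D1:**
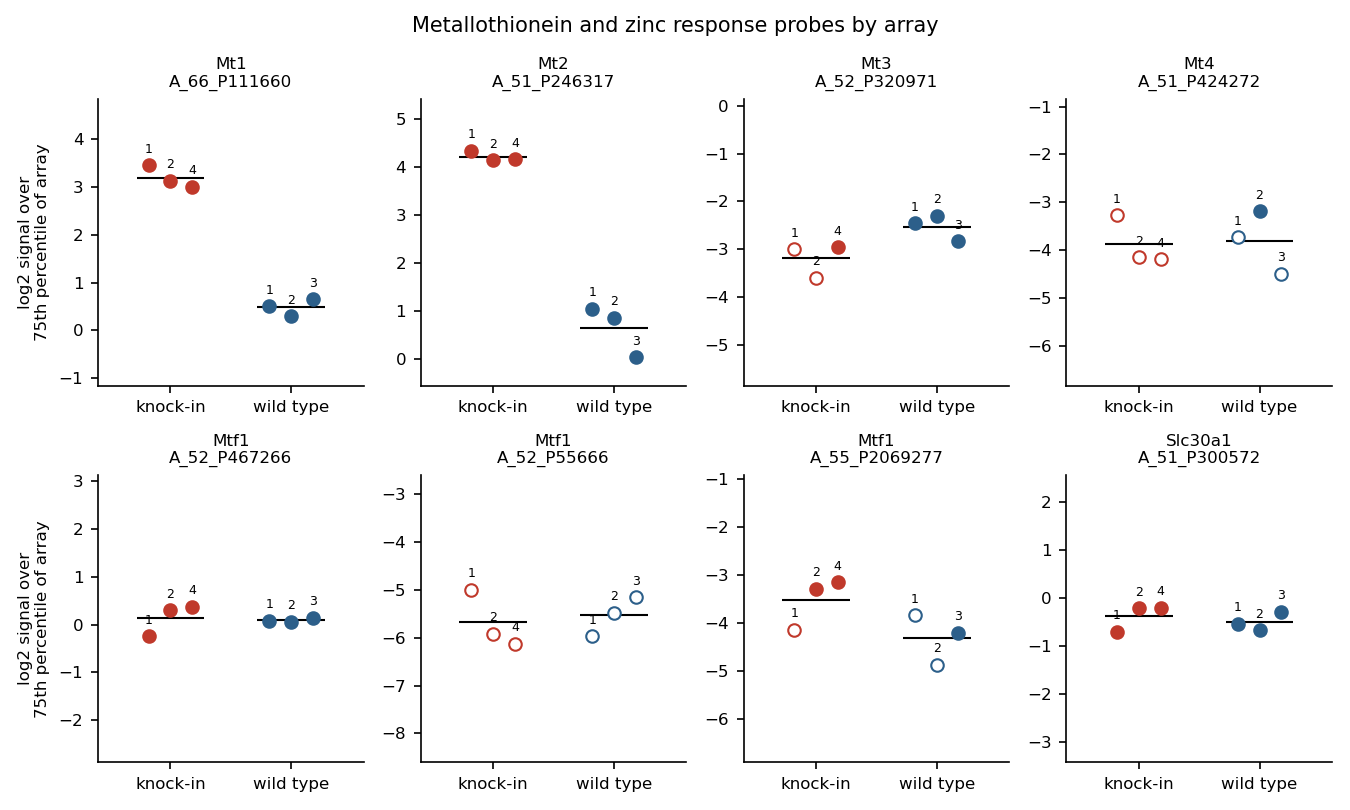
Log2 signal over the 75th percentile of the array (vertical axis, a span of 6 log2 units in every panel) for the 8 probes, with knock-in arrays in red and wild type arrays in blue, numbered by replicate; lines are group means, and open circles were not well above background. Mt1 and Mt2 separate by genotype with a wide gap, and the probe with the highest signal of Mtf1 and that of Slc30a1 overlap between groups.

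The groups of Mt1 and Mt2 were also apart before any scaling. The Mt1 probe then had processed signals of 1833, 1759 and 1512 on the knock-in arrays, against 201, 147 and 1098 on wild type arrays 1, 2 and 3. The Mt2 probe had 3396, 3553 and 3383 on the knock-in arrays, against 292, 217 and 710 in wild type. Wild type array 3 was several times brighter than any other array at its 75th percentile, and its unscaled Mt1 and Mt2 signals still lay below every knock-in array. Mtf1, the transcription factor, had unscaled signals of 141, 247 and 244 on the knock-in arrays, against 151, 125 and 774 on the wild type arrays, and followed the brightness of the array.

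**Figure D2:**
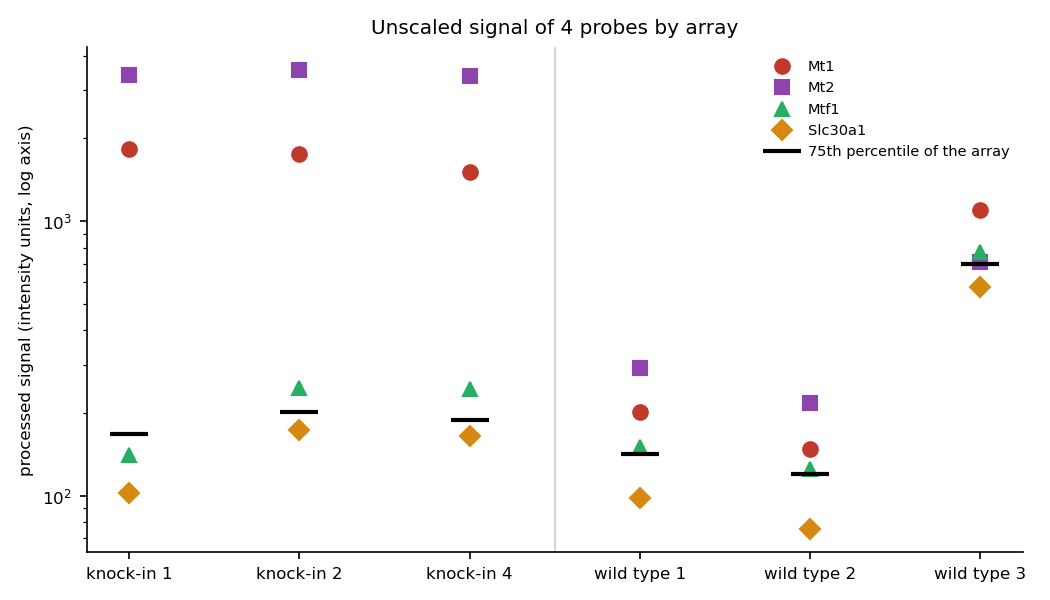
Processed signal before scaling (vertical log axis, intensity units) of the highest probe of Mt1, Mt2, Mtf1 and Slc30a1 on each array, with the 75th percentile of the array as a black bar; signals of one probe are to be read across arrays, not against another probe. Mt1 and Mt2 are higher on all 3 knock-in arrays than on any wild type array, and Mtf1 and Slc30a1 stay near the black bar throughout.

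Ratios within an array carry no scaling, and 6 were compared between genotypes with a two-sided exact permutation test, which for 3 against 3 arrays cannot go below p = 0.1. The log2 ratio of Mt1 to Slc30a1 was 4.16, 3.35 and 3.20 on the knock-in arrays, against 1.04, 0.97 and 0.93 in wild type, a difference of 2.59. For Mt2 to Slc30a1 the difference was 3.45, for Mt1 to Mtf1 2.67 and for Mt2 to Mtf1 3.53. In these 4 ratios the groups did not overlap (exact permutation p = 0.1 each, adjusted p = 0.12 over the 6 ratios). The ratio of Mt2 to Mt1 was 0.89, 1.01 and 1.16 on the knock-in arrays, against 0.54, 0.56 and -0.63 on the wild type arrays. Mt2 therefore differed by 0.86 more than Mt1 (exact permutation p = 0.1, adjusted p = 0.12), and by 0.47 without wild type array 3. The ratio of the 2 other members, Slc30a1 to Mtf1, averaged -0.51 ± 0.057 in knock-in lenses and -0.59 ± 0.15 in wild type lenses (SD, n = 3 each), and overlapped (exact permutation p = 0.5, adjusted p = 0.5).

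Mtf1, which encodes the zinc-sensing transcription factor, was well above background on every array with 1 of its 3 probes. That probe had levels of -0.25, 0.30 and 0.38 on the knock-in arrays, against 0.084, 0.060 and 0.15 on the wild type arrays, so the wild type values lay inside the knock-in range. The log2 difference was 0.045 (SE 0.21, limma adjusted p = 0.896), with a 95% interval from 0.735-fold to 1.45-fold. Of its other probes, 1 passed the background mark on 2 knock-in arrays and 1 wild type array (difference 0.78), and 1 on no array (difference -0.15). Both were too dim for the test.

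Slc30a1, the zinc exporter gene, had levels of -0.71, -0.22 and -0.20 on the knock-in arrays, against -0.54, -0.67 and -0.28 on the wild type arrays. The groups overlapped, with knock-in array 1 the lowest of all 6. The log2 difference was 0.12 (SE 0.21, limma adjusted p = 0.701), with a 95% interval from 0.773-fold to 1.54-fold. The interval of Slc30a1 therefore ends below the lower bound of Mt1, 4.79-fold, and of Mt2, 7.57-fold. A p that misses the threshold does not show that Slc30a1 was equal in both genotypes.

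Mt3, the metallothionein known from brain, was dim. Its levels were -3.003, -3.60 and -2.96 on the knock-in arrays, against -2.46, -2.29 and -2.83 on the wild type arrays, and only knock-in array 4 and the 3 wild type arrays were well above background. The knock-in levels were the lower ones without overlap, as in one direction or the other for 45.9% of genes. The log2 difference of -0.66 (SE 0.24, limma adjusted p = 0.0914) did not pass. It was called within the scan day (-0.81, adjusted p = 0.03) and without wild type array 3 (-0.81, adjusted p = 0.0315), and it stayed uncalled under the random block for slide (adjusted p = 0.489). With normexp background its difference was -0.019 (adjusted p = 0.985), and -0.24 (adjusted p = 0.175) with quantile normalization added. Over all alternatives its adjusted p lay between 0.000182 and 0.985.

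Mt4, the metallothionein of squamous epithelium, was well above background on no knock-in array and on 1 wild type array. Its levels were -3.28, -4.15 and -4.19 on the knock-in arrays, against -3.73, -3.18 and -4.50 on the wild type arrays, and the groups overlapped. No fold change is given for it. Metallothionein transcripts resemble each other, and binding of one gene's transcript by another's probe was not tested.

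Over the 6 arrays the levels of Mt1 and Mt2 correlated at r = 0.97 and those of Mtf1 and Slc30a1 at r = 0.88, while Mt1 and Slc30a1 correlated at r = 0.25. These are descriptions over 6 arrays that share their scaling, and for Mt1 and Mt2 the arrays fall into the 2 genotypes. Among 10651 genes well above background on all arrays, the patterns most like that of Mt1 were Vmp1 (r = 0.9995), Ptgr1 (r = 0.9994) and Urah (r = 0.9992). Vmp1 encodes a membrane protein of autophagy and Ptgr1 a prostaglandin reductase, and their log2 differences were 1.15 and 2.19. For Mt2 they were Cdsn (r = 0.9998), which encodes corneodesmosin, Gpatch1 (r = 0.9991) and the chemokine gene Ccl2 (r = 0.9989), with log2 differences of 3.21, 0.87 and 3.20. As many as 1413 genes correlated above 0.9 with Mt1 and 1192 with Mt2, so such likeness is common on these arrays. Mtf1 was most like Ppp2r5c, Lman1 and Spg11 (r = 0.997, 0.997 and 0.996), and Slc30a1 most like Cpped1, Cars and Mark3 (r = 0.994, 0.989 and 0.983), genes whose log2 differences lay between 0.036 and 0.13. For the dim Mt3 they were Gtpbp1, Tmem87a and Skap1 (r = 0.993, 0.979 and 0.975).

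The 4 metallothionein genes lie next to each other on mouse chromosome 8, so protein-coding genes on both sides were compared. Of 9 neighbours 8 were measured, 1 was higher, 2 were lower and 5 did not pass. Over all genes 12.4% were called higher and 11.8% lower. The median log2 difference of the neighbours was -0.10, against -0.036 over all genes. Nup93, a nuclear pore gene next to Mt1, had -0.21 (SE 0.21, limma adjusted p = 0.488). On the Mt4 side Bbs2, a Bardet-Biedl syndrome gene, rose by 1.34 (SE 0.34, adjusted p = 0.0314), with 2 of 3 wild type arrays well above background. Bbs2 thus entered the test only through its knock-in level. Its call was lost on leaving out any of the knock-in arrays, or wild type 1, or wild type 2 (adjusted p from 0.058 to 0.103). Herpud1, of the endoplasmic reticulum stress response, fell by 1.13 (SE 0.19, adjusted p = 0.00837), and Gnao1, a G protein subunit gene, fell by 1.56 (SE 0.30, adjusted p = 0.0124). With 2 of 3 knock-in arrays well above background, Gnao1 entered the test only through its wild type level. Gnao1 did not pass without knock-in 2 (adjusted p = 0.0539), and with normexp background its difference was -0.28 and that of Bbs2 0.50 (adjusted p = 0.565 and 0.418). None of the 3 passed under the random block for slide (adjusted p = 0.314 for Bbs2, 0.139 for Herpud1 and 0.19 for Gnao1). Ogfod1, Nudt21, Nlrc5 and Cpne2 differed by 0.42, 0.0048, -0.31 and 0.16. Nlrc5 was called with array weights (-0.95, adjusted p = 0.00203) and with the replicate block (-1.16, adjusted p = 0.00346), and lay between -0.77 and -0.061 without single arrays. Slc12a3 was well above background on 1 knock-in and on no wild type array and was not tested. Among the tested genes of this stretch, Mt2 and Mt1 had the largest rises.

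**Figure D3:**
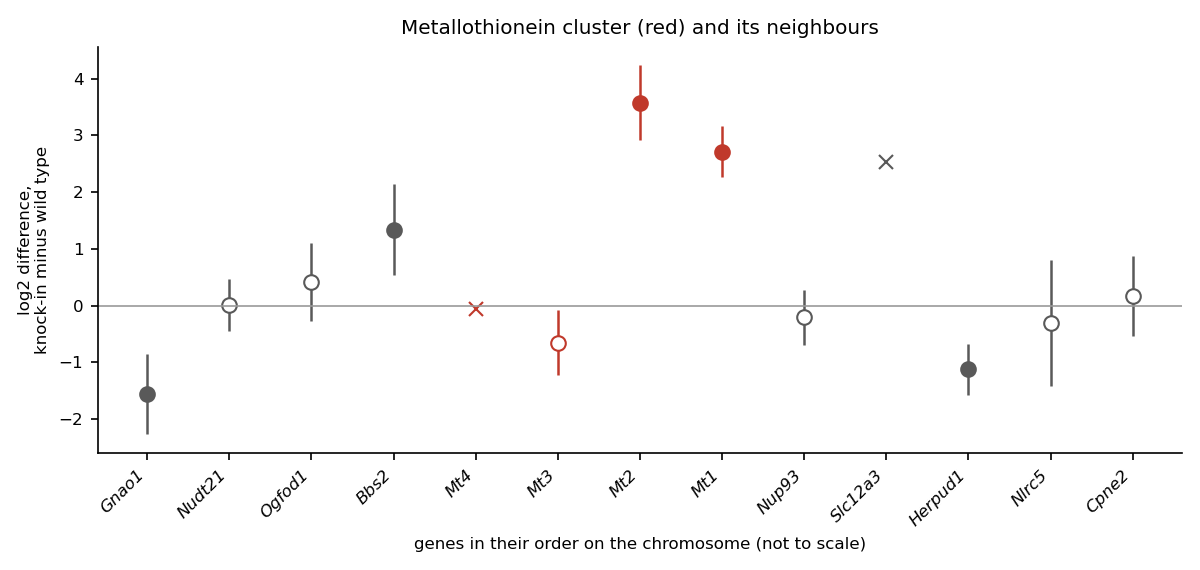
Log2 difference, knock-in minus wild type (vertical axis), of the 4 metallothionein genes (red) and 9 neighbours (grey) in their order on the chromosome; bars are 95% intervals, filled circles passed the adjusted p of 0.05, open circles did not, and crosses were not tested. Mt2 and Mt1 stand at 3.58 and 2.71, with Mt3 at -0.66 and Nup93 at -0.21 beside them.

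Genes around the metallothioneins were grouped in 8 lists of other zinc transporters, MTF1 targets, copper and iron handling and the known inducers. They held 76 genes, of which 66 were measured and 26 called (17 higher, 9 lower), with a median log2 difference of 0.084. The share called was 39.4%, against 24.2% of all genes. Since the lists were chosen with earlier results of these data known, this is a description and not an independent comparison. With slide treated as a random block 7 of them were called, 16 with normexp background and 13 without the filter on dim probes. Among the genes named below, normexp background ended the calls of Slc30a4, Slc30a9, Slc39a12, Selenow, Slc40a1, Sco2, Tsc22d3, Sgk1, Dusp1 and Il6ra (adjusted p from 0.0695 to 0.171). Testing all probes without the filter ended those of Slc30a4, Slc30a9, Slc39a1, Slc39a12, Slc39a13, Slc40a1, Atox1, Sco2, Klf9, Fkbp5, Tsc22d3, Sgk1 and Dusp1 (adjusted p from 0.0535 to 0.147).

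Among the other zinc exporters and vesicle loaders of the SLC30 family, 2 of 6 measured genes were higher and none lower, with a median of 0.36. Slc30a4, which loads zinc into vesicles, rose by 1.19 (SE 0.27, adjusted p = 0.0213) and Slc30a9 by 0.88 (SE 0.18, adjusted p = 0.0147). The levels of Slc30a4 were 1.84, 2.34 and 2.74 on the knock-in arrays, against 0.94, 0.96 and 1.44 on the wild type arrays. Slc30a7 differed by 0.63 (adjusted p = 0.0516) and Slc30a6 by 0.094 (adjusted p = 0.704). The mean of the probes of Slc30a9 gave 0.38 (adjusted p = 0.198). Both calls were lost without knock-in 2 and without either of wild type 1 and 2, and that of Slc30a4 also without knock-in 4 (adjusted p from 0.0583 to 0.0813), and under the random block for slide (adjusted p = 0.194 for Slc30a9 and 0.256 for Slc30a4).

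Zinc importers of the SLC39 family moved both ways, with 2 higher and 2 lower of 10 measured and a median of -0.28. Slc39a6 rose by 1.18 (SE 0.17, limma adjusted p = 0.00411), with levels of 1.66, 1.82 and 1.92 on the knock-in arrays, against 0.66, 0.47 and 0.72 on the wild type arrays. Slc39a1, a plasma membrane importer, rose by 0.94 (SE 0.17, adjusted p = 0.0101). Slc39a12 fell by 1.15 (SE 0.23, adjusted p = 0.0141) and Slc39a13 by 0.82 (SE 0.19, adjusted p = 0.0208) on the log2 scale. In each of these genes the groups did not overlap, as in one direction or the other for 45.9% of all genes tested. Slc39a12 had more than 1 probe, and their mean gave -0.46 (adjusted p = 0.0826). Without knock-in 2 Slc39a1 was not called (adjusted p = 0.0598), and Slc39a13 was not called on leaving out knock-in 2 or either of wild type 1 and 2 (adjusted p from 0.0662 to 0.0873). Under the random block for slide none of the 4 passed (adjusted p = 0.084 for Slc39a6, 0.127 for Slc39a1, 0.178 for Slc39a12 and 0.252 for Slc39a13).

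Of 7 other genes reported to respond to MTF1, in either direction, 1 was higher, 3 were lower and 3 did not pass, with a median of -0.53. Ndrg1, a stress-responsive gene, fell by 2.02 (SE 0.15, adjusted p = 0.000392), with levels of 4.23, 4.19 and 4.30 on the knock-in arrays, against 6.22, 6.24 and 6.33 on the wild type arrays. Csrp1, a LIM protein gene, fell by 1.86 (SE 0.17, adjusted p = 0.00087) and Selenow, a selenoprotein gene, by 1.04 (SE 0.18, adjusted p = 0.00811). Slc40a1, the iron exporter ferroportin, rose by 0.82 (SE 0.18, adjusted p = 0.0204). Ndrg1 and Csrp1 passed under every alternative run. Selenow was not called without knock-in 2 (adjusted p = 0.05) or under the random block for slide (adjusted p = 0.111), and Slc40a1 was not called without one of knock-in 1 and 2 or one of wild type 1 and 2 (adjusted p from 0.0561 to 0.0976) or with that block (adjusted p = 0.187).

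In copper handling, 2 of 11 measured genes were higher and none lower, with a median of -0.24. The rises were those of Atox1, the copper chaperone of the secretory pathway, by 0.94 (SE 0.17, adjusted p = 0.0103) and Sco2, a mitochondrial copper chaperone, by 1.00 (SE 0.18, adjusted p = 0.00979). Sod1, the copper and zinc superoxide dismutase, differed by -0.46 (adjusted p = 0.0776) and its chaperone Ccs by -0.40 (adjusted p = 0.139). Neither rise passed without knock-in 2 (adjusted p = 0.053 for Atox1 and 0.0565 for Sco2) or under the random block for slide (adjusted p = 0.134 and 0.157). After normexp background with quantile normalization Sod1 turned to 0.30.

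In iron handling, 3 were higher and 1 lower of 10 measured, with a median of 0.27. Trf, transferrin, rose by 1.95 (SE 0.24, adjusted p = 0.00251) and Cp, the copper-bearing ferroxidase ceruloplasmin, by 1.42 (SE 0.23, adjusted p = 0.00722), beside Slc40a1. Cp had levels of 5.60, 5.05 and 4.79 on the knock-in arrays, against 3.70, 3.64 and 3.82 on the wild type arrays. Hmox1, heme oxygenase 1, which both NRF2 and heme induce, fell by 1.53 (SE 0.20, adjusted p = 0.00309). The random block for slide gave adjusted p of 0.0615 for Trf, 0.14 for Cp and 0.0555 for Hmox1.

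**Figure D4:**
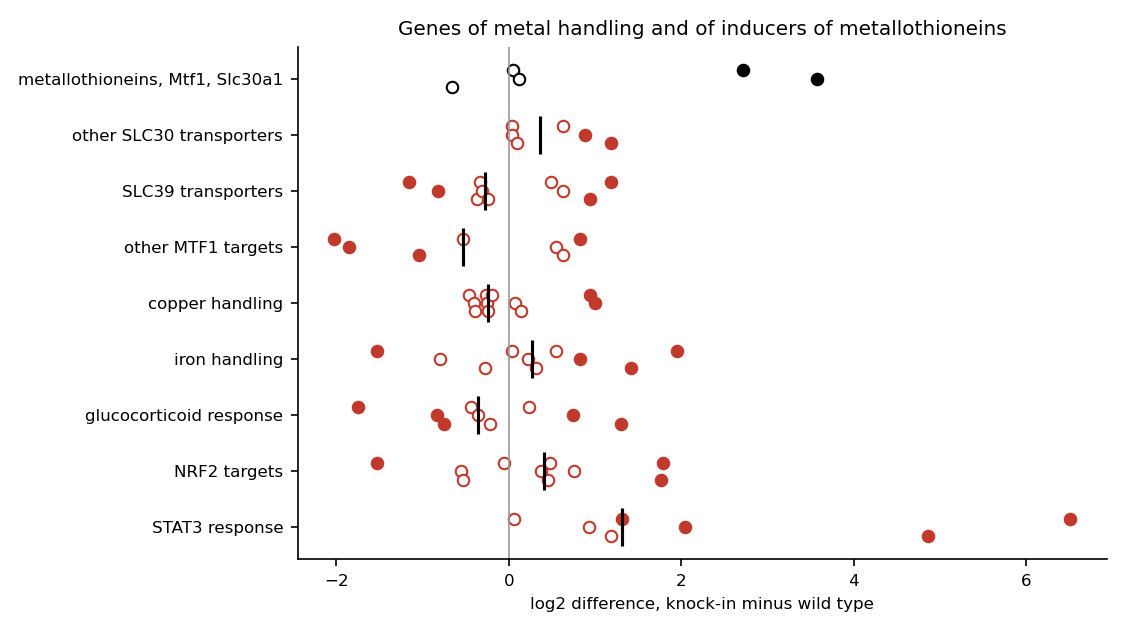
Log2 difference, knock-in minus wild type (horizontal axis), of each measured gene in the 8 lists (red) and of the 5 measured metallothionein and zinc response genes (black); filled circles passed the adjusted p of 0.05 and black bars are list medians. In this main fit the differences of Mt1 and Mt2 exceed every gene of the transporter, copper, iron, glucocorticoid and NRF2 lists. The points of Bcl3 and Il6ra of the STAT3 list lie beyond them, but rest on wild type signals not well above background. With normexp background Bcl3 and Il6ra stood at 2.75 and 1.59, against 2.36 for Mt1 and 3.44 for Mt2.

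Among genes of the known inducers, those of the glucocorticoid response moved both ways, with 2 higher and 3 lower of 9 measured and a median of -0.36. Klf9 rose by 1.30 (SE 0.26, adjusted p = 0.013) and the kinase gene Sgk1 by 0.74 (SE 0.21, adjusted p = 0.0427). Fkbp5, a chaperone partner of the glucocorticoid receptor, fell by 0.84 (SE 0.17, adjusted p = 0.0141) and Tsc22d3, the leucine zipper gene GILZ, by 0.75 (SE 0.19, adjusted p = 0.0327). The phosphatase gene Dusp1, which was picked with its value in view, fell by 1.75 (SE 0.51, adjusted p = 0.0464). All 5 calls were lost on leaving out knock-in 2 (adjusted p from 0.0562 to 0.132) and under the random block for slide (adjusted p from 0.137 to 0.317). Those of Sgk1, Tsc22d3 and Dusp1 were also lost on leaving out one of knock-in 1 and 4 or one of wild type 1 and 2 (adjusted p from 0.0563 to 0.149), and that of Fkbp5 on leaving out wild type 1 or 2 (adjusted p = 0.0777 and 0.064).

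Of the NRF2 targets and regulators, 2 were higher and 1 lower of 10 measured, with a median of 0.41. Srxn1, sulfiredoxin, rose by 1.79 (SE 0.18, adjusted p = 0.00115) and Osgin1 by 1.77 (SE 0.17, adjusted p = 0.000959), and both passed under every alternative run, Osgin1 with 0.90 on normexp background. The fall was that of Hmox1. Nfe2l2, which encodes NRF2, differed by 0.45 (adjusted p = 0.0794).

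In the STAT3 response, 4 were higher and none lower of 7 measured, with a median of 1.31. Stat3 itself, the transcription factor of interleukin-6 family signals, rose by 1.31 (SE 0.17, adjusted p = 0.00279), with levels of 2.14, 2.41 and 2.39 on the knock-in arrays, against 0.96, 0.92 and 1.13 on the wild type arrays. Osmr, the oncostatin M receptor gene, rose by 2.05 (SE 0.17, adjusted p = 0.000556). Bcl3 and the interleukin-6 receptor gene Il6ra had no wild type array well above background. Under the main scaling knock-in lenses had at least 23.5-fold and at least 7.87-fold more signal. Both genes entered the test, and the 4 calls, only through their knock-in level. Their limma adjusted p (6.54e-05 and 0.000178) used wild type values not well above background and does not belong to the bounds. Those bounds set the knock-in mean against the lowest signal well above background on each wild type array. With normexp background the log2 differences of Bcl3 and Il6ra were 2.75 and 1.59, and that of Osmr was 1.33. Stat3 was not called under the random block for slide (adjusted p = 0.0612).

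Markers checked the tissue and the other cells it could hold, with sums of linear signal in units of the 75th percentile. Their counts stand beside 24.2% of all genes called. The 8 lens fibre markers measured were well above background on all arrays, with a median log2 difference of -0.91. Of these Lim2, Hsf4 and Mip fell and none rose. The fibre sum was 1073 to 1218 in knock-in and 890 to 3508 in wild type lenses, so the groups overlapped. Without Cryba1, which had the highest signal, it was 683 to 727 in knock-in and 701 to 2520 in wild type lenses. On wild type array 3 Cryba1, Crygd and Bfsp1 stood at 7.56, 7.51 and 7.26, below every knock-in array. The other fibre markers stood above every knock-in array there. The lens channel gene Mip had levels of 6.94, 6.92 and 6.81 on the knock-in arrays, against 8.45, 8.60 and 7.24 in wild type. The 8 lens epithelial markers had a median of -0.41, with Pdpn called higher (1.55, adjusted p = 0.00115) and Aqp5 (-1.66, adjusted p = 0.0025) and Foxe3 (-1.11, adjusted p = 0.0172) called lower. Foxe3 was well above background on 2 of 3 knock-in arrays and entered the test only through its wild type level. The epithelial sum was 59.9 to 64.8 in knock-in and 44.4 to 52.6 in wild type lenses. Without Pdpn, which had the highest signal, it was 17.3 to 22.5 in knock-in and 30.6 to 38.5 in wild type lenses.

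Leukocyte markers moved both ways, with 2 of 7 measured called higher, 1 lower and a median of 0.79. C1qc, a macrophage complement gene, was called higher (adjusted p = 0.0108), with levels of 1.52, -0.39 and -0.56 on the knock-in arrays, against -3.83, -2.96 and -5.80 in wild type, where 1 of the 3 arrays was well above background. C1qc thus entered the test only through its knock-in level. Tyrobp, a myeloid adaptor gene, had no wild type array well above background. It entered the test only through its knock-in level (limma adjusted p = 0.00343). By a bound of the same kind as for Bcl3 it was at least 5.11-fold brighter in knock-in, or at least 3.09-fold without knock-in 1. The integrin gene Itgam fell by 1.65 (adjusted p = 0.0425), and C1qb, Adgre1, Csf1r and C1qa differed by -0.86, -0.39, 0.79 and 2.02 without passing. The leukocyte sum was 9.44 to 18.2 in knock-in and 12.7 to 40.9 in wild type lenses, and without Itgam, which had the highest signal, 3.17 to 8.15 in knock-in and 1.31 to 3.90 in wild type lenses. Lyz2 was well above background on no array.

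Among 5 of 8 vessel and stroma markers measured, Col1a2 was higher (3.05, adjusted p = 0.0255) and Kera lower (-1.19, adjusted p = 0.0422), and Cdh5 and Lum were well above background on no array. The sums were 9.79 to 14.4 in knock-in and 11.2 to 14.1 in wild type lenses, and without Pdgfrb 3.29 to 7.27 in knock-in and 1.74 to 4.34 in wild type lenses. Among 5 of 7 pigment cell markers measured, Mitf was called lower (-1.51, adjusted p = 0.0055) and none higher, with a median of 0.16. Dct, Tyrp1, Tyr and Pmel differed by 2.499, 1.29, 0.16 and -0.0023 without passing. Dct was higher on every knock-in array than on any wild type array, but only 1 wild type array was well above background. The pigment sums were 1.79 to 2.09 in knock-in and 1.88 to 2.96 in wild type lenses. Without Mitf they were 1.30 to 1.70 in knock-in and 0.573 to 1.42 in wild type lenses. None of 4 squamous epithelium markers measured, of 9, was called, and Krt12, Krt4 and Ivl were well above background on no array. Their sums were 4.61 to 5.81 in knock-in and 2.59 to 6.05 in wild type lenses, and without Trp63 1.55 to 1.90 in knock-in and 0.411 to 1.47 in wild type lenses. Among 3 of 9 retina and neuron markers measured, the photoreceptor gene Nrl was called higher (adjusted p = 0.0367). Its levels were -0.76, -1.36 and 3.04 on the knock-in arrays, against -2.93, -4.75 and -3.79 in wild type, where 2 of the 3 arrays were well above background. Nrl entered the test only through its knock-in level. Snap25 differed by -1.57 and Gnat1 by 3.60 without passing (limma adjusted p = 0.053 and 0.0599). Gnat1 too was highest on knock-in 4, at 3.13 against -1.47 and -1.12 on knock-in 1 and 2. The retina sums were 5.61 to 33.1 in knock-in and 8.15 to 26.3 in wild type lenses, and without Snap25 1.36 to 27.1 in knock-in and 0.375 to 0.575 in wild type lenses. Without knock-in 4, on which Nrl was highest, the differences were 2.81 for Mt1 and 3.60 for Mt2. The part of these cell types in the levels of Mt1 and Mt2 was not tested.

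**Figure D5:**
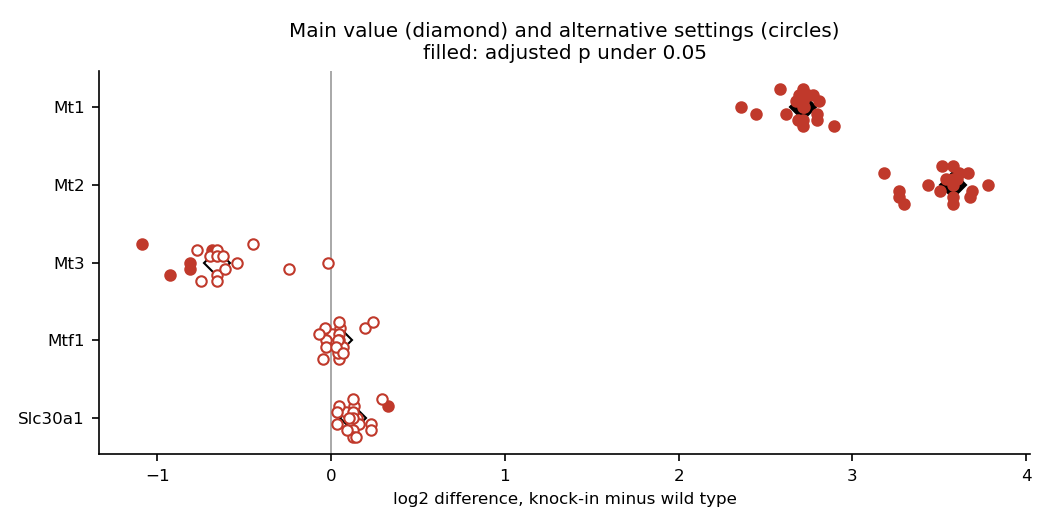
Log2 difference, knock-in minus wild type (horizontal axis), of the 5 measured genes in the main fit (black diamonds) and under each alternative setting (red circles); filled symbols passed the adjusted p of 0.05. Mt1 stays between 2.36 and 2.89 and Mt2 between 3.18 and 3.78, and Mtf1 and Slc30a1 lie around 0.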

How the data were processed

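Single-colour Agilent arrays of lens RNA were analysed, 3 knock-in and 3 wild type, grouped and numbered by the sample titles. The deposited values are intensities per spot, which Feature Extraction 11.0.1.1 wrote per the file headers (9.1 in the submitters' processing notes): a processed signal with the background removed, and the medians of spot and background. The sources used here give no scaling across arrays.

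Processed signals were divided by the 75th percentile over 43020 non-control spots of their array and put on the log2 scale. Outlier-marked spots were dropped, and those of the same probe averaged; each of the 8 probes had 1 spot, none marked. A probe was kept if at least 50% of its spots were well above background on all arrays of 1 group (21076 of 39429 probes). Probes were named through RefSeq accessions (27234 named), without coordinates, since the design refers to mm9. The probe with the highest mean stood for a gene in counts. limma (version 3.58.1, under R 4.3.3) was fitted over all probes kept (4 residual degrees of freedom). The fit was also run on simulated data with independent noise at the spread of the knock-in arrays and no slide effect. That run does not bear on effects of slide or of an outlying array.

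The genes, lists and tests were chosen with earlier results of these data known. Named are all members, up to 4 genes of smallest p per list, the neighbours of the cluster and the 3 genes most like each member; Dusp1 and the markers were named with their values in view, and 1 neighbour and 1 marker are not reported here. Alternatives covered scaling, normexp background (offset 50, on median signals since no mean signal is in the files), filters, outlier marks, array weights, the features tested, scan day, slide, replicate number and each array left out. No 2 arrays of a group had equal spot values, and their correlation over genes was 0.953 to 0.996. The number of arrays limits the precision.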

Additional observations from a re-analysis of the deposited data

How the results depend on the processing

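Mt1 and Mt2 kept their direction and call in all 19 alternatives, with adjusted p up to 0.00906 and 0.00571. Not all of these could move them. Each gene has 1 probe with no marked spot, so filters, outlier marks and the features tested left the differences as they were. The scan day as a block and the fit without wild type 3 gave the same differences, since that array is alone on its day. Leaving out single arrays gave 2.59 to 2.81 for Mt1, 3.27 to 3.78 for Mt2, -0.81 to -0.45 for Mt3, -0.072 to 0.24 for Mtf1, 0.035 to 0.29 for Slc30a1 and -0.42 to 0.24 for Mt4 (no test). Mt3 was called after quantile normalization (-0.69, adjusted p = 0.0312), with array weights (-1.09), with the scan day as a block (-0.81) and with the replicate block (-0.92), and was -0.019 with normexp background (adjusted p = 0.985) and -0.24 with normexp and quantile normalization (adjusted p = 0.175). Slc30a1 was called with array weights (0.33, adjusted p = 0.0144; 0.0144 to 0.944 over its alternatives), a fit in which wild type array 1 weighed 5.57 and wild type array 3 weighed 0.102. Mtf1 turned to -0.027 with normexp background, -0.030 with normexp and quantile normalization and -0.047 with the replicate block, and was never called.

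The number of called probes (4970) was 1914 with normexp background, 2071 without the filter, 15096 with array weights, 3312 with 1 probe per gene, 3304 with the mean of a gene's probes, 9250 with the scan day as a block, 669 with slide as a random block (consensus correlation 0.569), 9382 with the replicate block, and 1934 (without knock-in 2) to 9495 (without wild type 3) on leaving out single arrays; it was 2189 without wild type 1 and 2459 without wild type 2. Of the genes in the 8 lists, 26 were called, against 16 with normexp, 13 without the filter, 49 with array weights, 40 with the scan day as a block, 7 with slide as a random block, and 13 (without knock-in 2) to 40 (without wild type 3) without single arrays.

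The replicate numbers 1 and 2 occur in both genotypes, but the labels tie them to no shared animal or batch, and deviations from the group means correlated at 0.15 for number 1 and -0.18 for number 2. The replicate block moved Mt1 to 2.89 and Mt2 to 3.30.

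With the filter that asked for every array well above background, Mt3, Bcl3, Il6ra, Gnao1 and Bbs2 had no value. Among uncalled values that changed sign, Nudt21 was -0.034 (median centring), -0.038 (slide as a random block) and -0.087 to 0.14 without single arrays. Cpne2 was -0.0053 (normexp), -0.13 (array weights), -0.18 (scan day), -0.11 (replicate block) and -0.18 to 0.34 without single arrays, Nup93 0.062 (array weights) and Sod1 0.30 (normexp and quantile). Calls were gained with array weights by Slc30a7, Sod1, Ccs, Nfe2l2, Ogfod1 and Nlrc5, with the scan day as a block by Slc30a7, Sod1 and Nfe2l2, and with the replicate block by Slc30a7, Nfe2l2 and Nlrc5. Bounds without each array and marker sums without the top marker were added after seeing the data. The cause was not tested in any of these cases.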
